A study of Rattus norvegicus with 2 samples.

Results

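Semaphorins, ephrins and their receptors are the guidance genes examined here. Members were all genes whose name in the deposited peak annotation begins as a semaphorin of classes 3 to 7, a plexin, an Eph receptor or an ephrin, or is Nrp1 or Nrp2. This gave 24 genes with 126 peaks, of 8094 gene names and 28706 peaks in all. A gene enters the annotation only through a peak, so the families were also counted against a gene table, which lists 53 protein-coding members, 28 ligands and 25 receptors. The peaks come from 1 chromatin immunoprecipitation (ChIP-seq) library of myocardium from male Wistar rats in which the abdominal aorta was tied above the renal arteries against a 0.7 mm wire, a surgery that loads the heart with pressure. The antibody is given by vendor and catalogue number, and only the series title speaks of H3K18la, histone H3 lactylated at lysine 18, which was taken as its target. The matching input library had no values here, and the labels do not say how many rats gave the chromatin, their age, or whether any received vagal stimulation. No unoperated group was analysed, there are no replicates, and no test was possible. Below, a fold is the authors' enrichment of a peak over its local background.

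Semaphorins bind plexins, and the secreted class 3 semaphorins mostly do so with a neuropilin as co-receptor. Ephrins are membrane-bound ligands of the Eph receptor tyrosine kinases, and signals can pass into both the cell that carries the ephrin and the cell that carries the Eph receptor. Both systems steer growing axons, and in the heart they are known for vessel patterning, outflow tract development and innervation. H3K18la is made from lactate and has been described at active promoters and enhancers.

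A larger share of receptor genes than of ligand genes carried the name of a peak. Of 25 receptor genes, 14 (56.0%, 95% Clopper-Pearson interval 34.9 to 75.6%) had at least 1 peak. Of 28 ligand genes, 10 (35.7%, 18.6 to 55.9%) had one. Among all 23148 protein-coding genes the share was 26.5%. Only 6224 of the 8094 names matched a current symbol of the gene table. A protein-coding gene under an unmatched name counted as without a peak, so 26.5% may be too low. The same holds for the other shares of protein-coding genes with a peak given below. Older symbols added no guidance gene. Over ligands and receptors together the share was 24 of 53 (45.3%, 31.6 to 59.6%). The intervals of ligands and receptors overlap widely, so the difference of 20.3 percentage points is not resolved at these numbers. All intervals cover counting error only.

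The promoters of guidance genes with a peak at or next to the transcription start site (TSS) are shown first, because 14 of the 24 members had a peak centred within 1000 bp of their TSS. Of 53 family genes, 43 had a RefSeq promoter sequence, running from 250 bases before to 50 bases after the start, in the rat build GRCr8. The peaks are in build rn6, so a peak could not be laid over these letters, and the RefSeq start may differ from the start used by the annotation. Shown are the members with a peak of class promoter-TSS and the receptors with the strongest peaks within 1000 bp of the TSS, read 5′ to 3′ on the strand of the gene. Sema6b is left out because the strand implied by its peak distances in rn6 differs from that in GRCr8. The strand of Nrp1, and of Plxnb2 counted below, could not be checked in this way, because each has 1 named peak. Capitals mark the GC box GGGCGG on either strand, the site type bound by SP and KLF factors.
Efna1 (chr2:176986772-176987071, minus strand): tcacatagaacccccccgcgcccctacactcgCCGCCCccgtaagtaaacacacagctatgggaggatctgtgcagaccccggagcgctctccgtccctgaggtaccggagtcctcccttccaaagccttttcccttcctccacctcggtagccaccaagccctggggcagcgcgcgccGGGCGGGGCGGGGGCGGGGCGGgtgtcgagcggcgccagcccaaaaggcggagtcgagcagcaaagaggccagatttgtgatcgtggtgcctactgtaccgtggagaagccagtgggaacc
Sema6d (chr3:132337106-132337405, plus strand): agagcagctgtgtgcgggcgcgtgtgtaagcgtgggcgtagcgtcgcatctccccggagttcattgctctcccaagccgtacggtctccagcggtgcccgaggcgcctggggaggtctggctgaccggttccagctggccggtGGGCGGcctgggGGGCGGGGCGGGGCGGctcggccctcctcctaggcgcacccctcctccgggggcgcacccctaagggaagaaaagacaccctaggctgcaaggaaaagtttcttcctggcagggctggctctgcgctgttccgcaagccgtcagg
Sema4c (chr9:46297949-46298248, minus strand): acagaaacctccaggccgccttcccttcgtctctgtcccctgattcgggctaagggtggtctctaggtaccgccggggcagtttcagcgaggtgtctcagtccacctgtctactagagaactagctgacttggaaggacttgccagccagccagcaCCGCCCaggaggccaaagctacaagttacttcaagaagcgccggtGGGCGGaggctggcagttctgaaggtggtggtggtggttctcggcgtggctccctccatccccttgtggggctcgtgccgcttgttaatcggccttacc
Epha1 (chr4:72227425-72227724, minus strand): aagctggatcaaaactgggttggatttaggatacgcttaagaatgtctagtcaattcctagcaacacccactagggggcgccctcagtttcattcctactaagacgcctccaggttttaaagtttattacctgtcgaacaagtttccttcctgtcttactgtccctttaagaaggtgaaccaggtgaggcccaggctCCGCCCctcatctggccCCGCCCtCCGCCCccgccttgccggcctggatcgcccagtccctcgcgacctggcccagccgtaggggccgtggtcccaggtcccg
Nrp1 (chr19:73256307-73256606, plus strand): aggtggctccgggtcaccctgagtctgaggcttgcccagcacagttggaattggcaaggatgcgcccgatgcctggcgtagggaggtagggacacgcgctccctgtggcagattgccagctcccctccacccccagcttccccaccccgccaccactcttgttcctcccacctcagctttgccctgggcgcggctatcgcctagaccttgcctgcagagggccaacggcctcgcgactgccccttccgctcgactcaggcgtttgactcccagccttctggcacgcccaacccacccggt
Plxna2 (chr13:108691280-108691579, plus strand): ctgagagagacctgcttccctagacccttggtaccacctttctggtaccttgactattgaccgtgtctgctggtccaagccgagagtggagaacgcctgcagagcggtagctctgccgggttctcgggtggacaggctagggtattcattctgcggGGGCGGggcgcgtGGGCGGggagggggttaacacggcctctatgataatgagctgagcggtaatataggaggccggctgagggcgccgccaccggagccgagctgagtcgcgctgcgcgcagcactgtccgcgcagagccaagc
Ephb4 (chr12:24988339-24988638, minus strand): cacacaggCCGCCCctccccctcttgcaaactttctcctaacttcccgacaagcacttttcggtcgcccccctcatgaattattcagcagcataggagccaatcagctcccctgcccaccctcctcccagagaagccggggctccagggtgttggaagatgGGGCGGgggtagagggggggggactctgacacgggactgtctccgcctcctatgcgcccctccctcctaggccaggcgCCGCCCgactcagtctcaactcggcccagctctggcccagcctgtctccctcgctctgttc
GC boxes were present in 6 of the 7 promoters shown. Efna1 held 5 GC boxes, Sema6d 4, Epha1 and Ephb4 3 each, Plxna2 and Sema4c 2 each, and Nrp1 none. Among the 14 members with a peak within 1000 bp of the TSS, 10 (71.4%) held a GC box, beside 69.1% of the 3188 protein-coding genes with such a peak and 43.1% of all 18999 promoters. The 14 include Sema6b, and without it 10 of 13 (76.9%) held one. Of the 29 family genes without a peak, 24 had a promoter sequence, and 11 of these 24 (45.8%) held a GC box. The median ratio of observed to expected CpG was 0.747 in the 14 members and 0.629 in these 24 genes without a peak, and the ranges overlapped (0.303 to 1.004 and 0.0718 to 1.058). The lowest of the 14 was that of Sema6b, and the lowest of the other 13 was 0.475, at Ephb4. The median was 0.794 over the 3188 protein-coding genes with a peak within 1000 bp of the TSS and 0.549 over all promoters. The ETS core CGGAAG, on either strand, was in 1 of the 14 promoters (7.14%), that of Nrp1, beside 31.0% of the 3188 and 20.6% of all promoters. It was also infrequent in the 24 family genes without a peak (3, 12.5%) and in all 43 family promoters (9.3%). The E-box CACGTG was in none of the 14, beside 9.35% of the 3188, and in 4 of the 24 without a peak (16.7%). TATAAA, on either strand, was in none of the 43, beside 13.1% of all promoters. These matches describe the letters of the window and were not tied to binding of any factor. Overlapping matches were counted separately, and the last 3 letters of the GC box are the first 3 of the ETS core, so these matches can overlap.

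**Figure D1:**
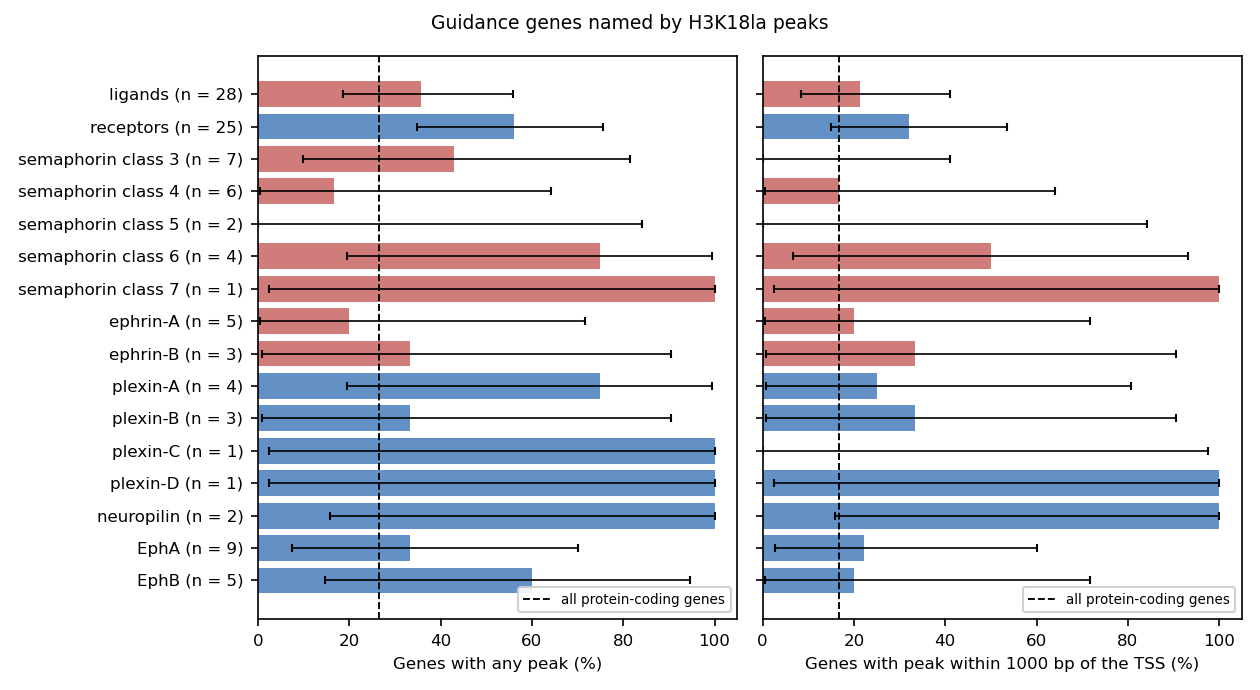
Share of family genes with any peak (left) and with a peak centred within 1000 bp of the TSS (right), in percent, for ligands (red), receptors (blue) and each subfamily; bars are shares, whiskers 95% Clopper-Pearson intervals, and the dashed line is the share over all protein-coding genes (26.5% and 16.7%). Receptors stand at 56.0% and 32.0% and ligands at 35.7% and 21.4%, with overlapping intervals.

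Among subfamilies of at least 2 genes, the largest shares with a peak were those of the neuropilins, the class 6 semaphorins and the A-type plexins. Class 6 semaphorins, which are transmembrane ligands, had peaks at 3 of 4 genes (Sema6a, Sema6b, Sema6d). A-type plexins, the signalling partners of neuropilins, had them at 3 of 4 (Plxna1, Plxna2, Plxna4), and both neuropilins had them. The secreted class 3 had 3 of 7 (Sema3b, Sema3f, Sema3g), class 4 had 1 of 6 (Sema4c), class 5 had 0 of 2 and class 7 had its sole gene, Sema7a. Among ephrins, 1 of 5 A-type genes (Efna1) and 1 of 3 B-type genes (Efnb2) had a peak. Eph receptors had 3 of 9 A-type genes (Epha1, Epha2, Epha4) and 3 of 5 B-type genes (Ephb1, Ephb2, Ephb4). Of the other plexins, Plxnb2, Plxnc1 and Plxnd1 had peaks. These groups are small, and each interval is wide, as the plot of shares by subfamily shows.

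No peak carried the name of 29 family genes. They were the ligands Sema3a, Sema3c, Sema3d, Sema3e, Sema4a, Sema4b, Sema4d, Sema4f, Sema4g, Sema5a, Sema5b, Sema6c, Efna2, Efna3, Efna4, Efna5, Efnb1 and Efnb3, and the receptors Plxna3, Plxnb1, Plxnb3, Epha3, Epha5, Epha6, Epha7, Epha8, Epha10, Ephb3 and Ephb6. Sema3a, a repellent of sympathetic axons in the heart, and Sema4d, the ligand of plexin-B1, are thus without a call. Efnb1, Plxna3 and Plxnb3 are on the X chromosome in the gene table, where 9.3% of all genes had a peak. A gene without a name in the list has no call at this depth and threshold, which does not show that the mark is absent.

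Close to the TSS, 8 of 25 receptor genes (32.0%, 14.9 to 53.5%) and 6 of 28 ligand genes (21.4%, 8.30 to 41.0%) had a peak centred within 1000 bp, beside 16.7% of protein-coding genes. With the annotation's own promoter-TSS class the order turned, with 4 ligand genes (14.3%, 4.03 to 32.7%) and 2 receptor genes (8%, 0.984 to 26.0%), beside 9.68% of protein-coding genes. The turn comes from where the peaks sit. The near peaks of Epha2, Ephb4, Nrp2, Plxna2, Plxnb2 and Plxnd1 lay downstream of the start and were classed as exon or intron. The promoter-TSS class of the ligand Sema4c and of the receptor Nrp1 refers to the start of a transcript that the list does not tie to that gene. Once only genes with a peak are counted, 14 of 24 members (58.3%) had a peak within 1000 bp of the TSS, beside 54.2% of all names, and 6 of 24 (25%) a promoter-TSS peak, beside 31.6%.

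Members carried more peaks than a typical name in the list. The median was 3.5 peaks per gene, for ligands and for receptors alike, beside 2 over all names. At least 5 peaks were named for 10 of 24 members (41.7%, 22.1 to 63.4%), beside 19.7% of all names, and for 10 of the 53 family genes (18.9%), beside 5.09% of protein-coding genes. Exactly 1 peak was named for 5 members (20.8%), all of them receptors (Nrp1, Plxnb2, Plxnc1, Epha4 and Ephb2), beside 45.0% of all names. The strongest peak of a member had a median fold of 5.36, beside 4.64 over all names, and 6 of 24 (25%) had a peak of at least 6-fold, beside 15.5%. Of all 53 family genes, 11.3% had such a peak, beside 4.1% of protein-coding genes. By class, 67 of the 126 member peaks (53.2%, 95% Wilson interval 44.5 to 61.7%) lay in introns, beside 43.8% of all peaks, 46 (36.5%) between genes beside 41.1%, 6 (4.76%) at promoters beside 9.78%, 4 (3.17%) in exons beside 3.54% and 3 (2.38%) at transcription termination sites beside 1.67%. Intron peaks made up 44 of 68 receptor peaks (64.7%, 52.8 to 75%) and 23 of 58 ligand peaks (39.7%, 28.1 to 52.5%). Receptor peaks were intergenic in 19 cases (27.9%) and ligand peaks in 27 (46.6%), of which 14 belong to Sema6a. These contrasts rest largely on the 2 genes with most peaks, since Plxna4 holds 15 of the 44 receptor intron peaks and none of the 14 Sema6a peaks lies in an intron. Without Plxna4 and Sema6a, 29 of 51 receptor peaks (56.9%, 43.3 to 69.5%) and 23 of 44 ligand peaks (52.3%, 37.9 to 66.2%) were in introns. Intergenic shares were then 33.3% and 29.5%, so their order turned. Peaks of 1 gene are not independent, and the intervals do not allow for that. The centre of 16 member peaks (12.7%, 7.97 to 19.6%) lay within 1000 bp of the TSS, beside 19.4% of all peaks, and that of 77 (61.1%) beyond 10 kb, beside 57.4%. Upstream of the TSS were 38 (30.2%, 22.8 to 38.7%), beside 43.2% of all peaks. Most member peaks thus lay downstream of the start of the gene they were named for.

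The folds of ligand and receptor peaks covered nearly the same range. The median fold was 4.28 over 58 ligand peaks (quartiles 3.72 and 4.53) and 4.22 over 68 receptor peaks (3.66 and 5.003), beside 4.13 over all peaks. The difference of -0.064 turned to 0.43 among peaks of at least 4-fold, so neither group can be called stronger. Folds of at least 6 were reached by 5 receptor peaks (7.35%) and 3 ligand peaks (5.17%), beside 6.31% of all peaks. Folds of at least 4 were reached by 74 of the 126 (58.7%), beside 55.5%, and a −log10 q of at least 5 by 41 (32.5%), beside 32%. Median width was 423 bp at ligands and 411.5 bp at receptors, beside 375 bp over all peaks, and 19 of the 126 peaks (15.1%, 9.87 to 22.4%) were at least 1000 bp wide, beside 9.22%, and 6 (4.76%) at least 2000 bp, beside 1.79%. The fold values are stepped, with 1838 distinct values over 28706 peaks, and every member peak shares its value with another peak of the list. Small differences between single peaks are therefore below what the list resolves.

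**Figure D2:**
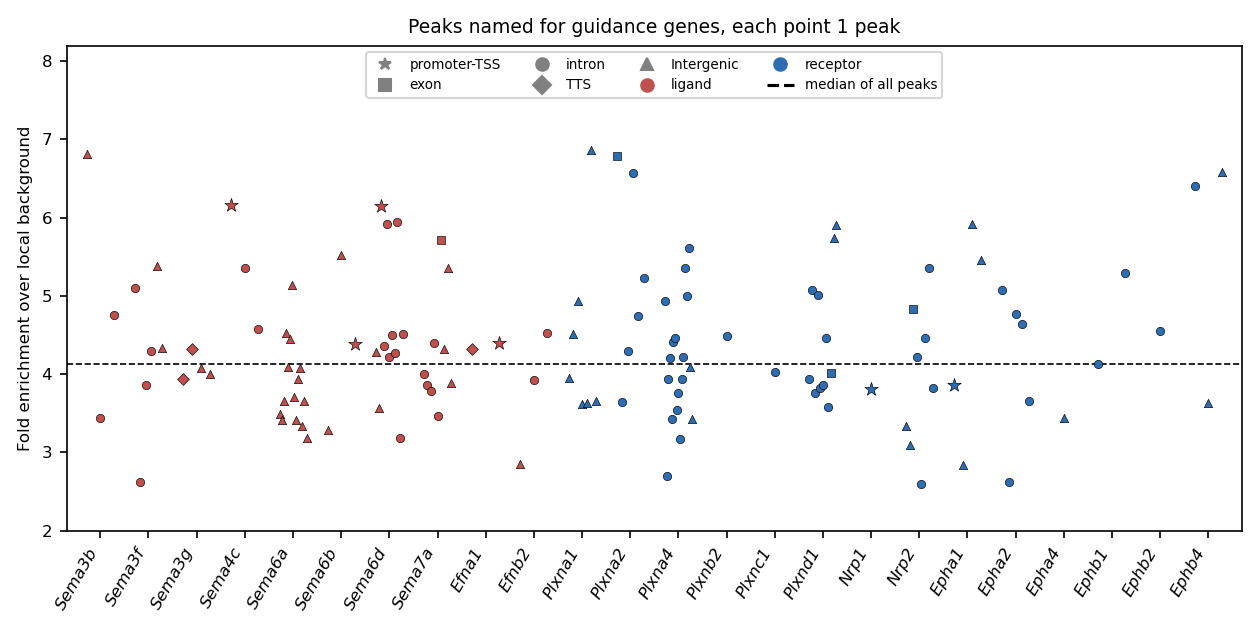
Fold enrichment (authors' value, over local background) of each of the 126 peaks named for guidance genes, by gene, with ligands in red and receptors in blue; symbols give the annotation class, points within a gene are in genome order, and the dashed line is the median of all peaks (4.13). Folds run from 2.59 at Nrp2 to 6.87 at Plxna1, and most genes have peaks on both sides of the line.

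Among semaphorins, the strongest peak was that of Sema3b, a secreted ligand, at 6.82-fold, intergenic and 7.51 kb upstream of the TSS (chromosome 8, 116368088 to 116369608, width 1521 bp). Its other 2 peaks, at 4.76-fold and 3.44-fold, lay in intron 4 of the neighbouring gene Gnai2, which encodes an inhibitory G protein subunit, and carry the name of Sema3b as the nearest TSS. Sema4c, a transmembrane ligand of plexin-B2, had a promoter-TSS peak of 6.16-fold, the widest of the semaphorins at 2231 bp (chromosome 9, 43137736 to 43139966). That peak was centred 395 bp downstream of the Sema4c TSS. Its class refers to the start of a transcript that the list does not tie to a gene name. The Sema4c peaks of 5.35-fold and 4.57-fold lay in intron 2 of the unnamed model AABR07067401.1. Sema3b and Sema4c are thus the members for which the name and the place of a peak part most among the ligands.

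Sema6d, a transmembrane ligand of plexin-A1 with a known role in heart morphogenesis, had 11 peaks. Its promoter-TSS peak reached 6.15-fold over 2050 bp (chromosome 3, 116898388 to 116900437). In intron 1 there were 7 further peaks, of 3.18-fold to 5.95-fold, from 5.58 to 41.3 kb downstream of the TSS, and intron 9 held 1 of 4.51-fold. An intergenic peak of 4.28-fold stood 208.6 kb upstream, the farthest of any member. Sema6a, its paralogue and a ligand of plexin-A2 and plexin-A4, had the most peaks of the semaphorins, 14, and all 14 were intergenic. They formed separate groups, with 5 peaks from 57.8 to 64.1 kb downstream of the TSS (3.33-fold to 4.07-fold), 2 at 96.2 and 101.4 kb (5.14-fold and 4.44-fold) and 5 from 138.2 to 147.03 kb (3.41-fold to 4.53-fold). The remaining 2 lay 7.79 and 8.65 kb upstream. No Sema6a peak was within 1000 bp of its TSS. Sema6b had a promoter-TSS peak of 4.38-fold (chromosome 9, 10940542 to 10941418) and a stronger peak of 5.52-fold, 1.82 kb upstream.

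Sema7a, a membrane-anchored semaphorin that signals through integrins and plexin-C1, had 9 peaks of 3.46-fold to 5.71-fold. Of these, 5 were in intron 1, beginning 267 bp downstream of the TSS, and the strongest was in exon 12 (chromosome 8, 62744149 to 62744433). A further 3 stood past the end of the gene, 24.6 to 26.8 kb downstream of the TSS. The secreted ligands Sema3f and Sema3g had no peak within 1000 bp of the TSS. Sema3f, which repels through neuropilin-2, had 6 peaks of 2.62-fold to 5.38-fold, 4 of them in introns and 2 of them 16.4 and 17.1 kb upstream. Sema3g, a semaphorin known from endothelium, had 4 peaks of 3.94-fold to 4.32-fold in a run of 3247 bp at and past its 3' end (chromosome 16, 7315096 to 7318342).

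Ephrin peaks were few and none reached 5-fold. Efna1, a membrane-anchored ligand of EphA2, had a promoter-TSS peak of 4.40-fold, the widest of the ephrins at 1393 bp (chromosome 2, 188596037 to 188597429), and one of 4.32-fold centred 761 bp downstream (188595062 to 188595861), which the annotation classes as the termination site of another model, AC098750.2. Efnb2, the arterial endothelial ligand of EphB4, had the most ephrin peaks, 3. They reached 4.53-fold in intron 2, 31.1 kb downstream of the TSS (chromosome 16, 86661987 to 86662270), 3.93-fold in intron 1, 581 bp downstream, and 2.86-fold at 1236 bp upstream. None of the 3 Efnb2 peaks reached a −log10 q of 5.

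**Figure D3:**
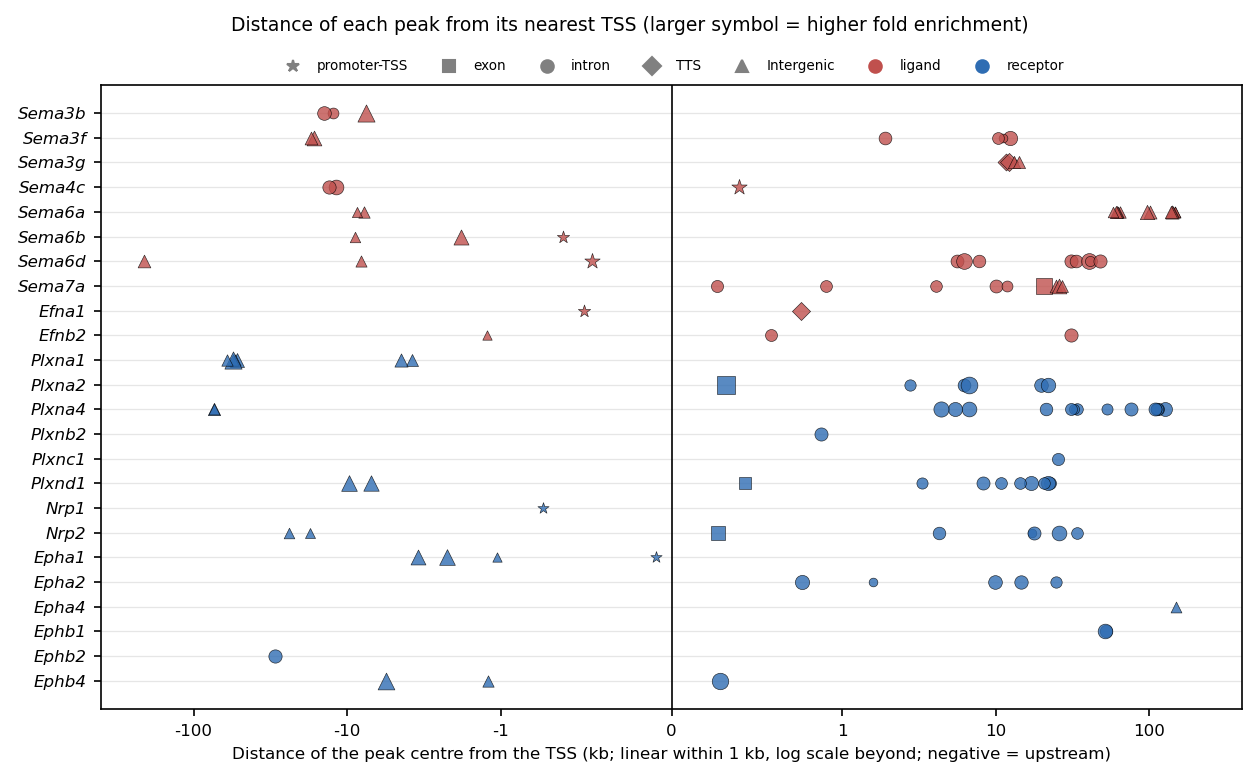
Signed distance of each peak centre from the nearest TSS of the named gene, in kb (linear within 1 kb, log scale beyond, negative upstream), for the 24 member genes; ligands are red, receptors blue, symbols give the annotation class and larger symbols a higher fold. All Plxna1 peaks lie upstream and 12 of the 14 Sema6a peaks more than 50 kb downstream, while 14 genes have at least 1 peak within 1 kb of 0.

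Among receptors, A-type plexins held the 2 strongest peaks, and the layout of peaks differed from gene to gene. Plxna1, the receptor of Sema6d and, with neuropilins, of class 3 semaphorins, had 7 peaks, all intergenic and upstream. Of these, 5 stood 52.3 to 60.6 kb upstream, among them the strongest member peak of all, 6.87-fold (chromosome 4, 121313278 to 121313856), next to peaks of 4.93-fold, 3.62-fold and 3.64-fold. The other 2 lay 3.78 and 4.44 kb upstream at 3.95-fold and 4.51-fold. Plxna2, a receptor of class 6 semaphorins, had its strongest peak over exon 1, 317 bp downstream of the TSS, at 6.78-fold over 2026 bp (chromosome 13, 113372883 to 113374908). A peak of 6.58-fold lay in intron 1, 6.68 kb downstream (113380146 to 113380370). Its other 4 peaks, also in intron 1, reached 3.64-fold to 5.23-fold.

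Plxna4, a receptor in sensory and sympathetic axon guidance, had the most peaks of all members, 17, and none near its TSS. In intron 2 there were 12, of 2.69-fold to 4.93-fold, and in intron 1 there were 3, of 4.9998-fold to 5.61-fold, from 4.38 to 6.70 kb downstream of the TSS. The remaining 2 were intergenic, 73.3 and 74.04 kb upstream. Plxnd1, the endothelial receptor of Sema3e, had 11 peaks, of which the intergenic one 9.74 kb upstream was the widest of all members at 4282 bp and reached 5.91-fold (chromosome 4, 147901588 to 147905869). A peak of 5.74-fold adjoined it, 7.02 kb upstream. Its exon 1 peak, 429 bp downstream of the TSS, was weaker at 4.02-fold. Plxnb2, the receptor of Sema4c, had 1 peak of 4.49-fold, 875 bp downstream of the TSS, and Plxnc1 had 1 of 4.03-fold in intron 2, 25.3 kb downstream.

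The neuropilins, co-receptors for class 3 semaphorins and for VEGF, differed by name count. Nrp2 had 8 peaks of 2.59-fold to 5.35-fold, with the strongest in intron 2 (chromosome 9, 69522294 to 69523728), and an exon 1 peak of 4.84-fold 271 bp downstream of the TSS. Nrp1 had 1 named peak, of class promoter-TSS, at 3.81-fold over 1332 bp (chromosome 19, 61332751 to 61334082), centred 752 bp upstream of its TSS. That class refers to the start of an unnamed model beside Nrp1, and the count for Nrp1 changes most when peaks are read by transcript.

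Names and gene bodies were therefore compared. Where the annotation places a peak in an intron or exon of a transcript that it elsewhere ties to a gene, the host gene is known. Of 12575 intron and 1015 exon peaks in the whole list, 11612 had a known host. Among these, 17.2% lay in a transcript of another gene than the one named. By this reading Nrp1 gained 19 peaks, 14 in intron 2, 4 in intron 6 and 1 in intron 12, of 2.84-fold to 5.32-fold, named for an unnamed model or for AABR07044173.1. Plxna2 gained 11 peaks of 2.79-fold to 6.86-fold, 10 of them in introns 2 and 3, named for AABR07022212.1. The strongest of them, 6.86-fold in intron 3 (chromosome 13, 113407268 to 113408974), exceeds any peak named for Plxna2. Plxnd1 gained 7, in introns 25 to 36 at its 3' end, of 2.73-fold to 6.27-fold, named for H1f8. Epha1 gained 1, named for Zyx. Among peaks with a known host, no ligand gained a peak, and the ligands Sema3b and Sema4c each lost 2.

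Counted this way, receptors had 106 peaks in place of 68 and ligands 54 in place of 58, so the numbers lay farther apart by transcript than by name. Nrp1 then had 20 peaks, Plxnd1 18, Plxna2 17 and Plxna4 17, the 4 highest counts among members, ahead of Sema6a with 14. Genes without any named peak could not be checked, because their transcripts are not tied to a name in the list. Peaks without a known host, such as the intron peaks named for Plxnb2 and Ephb2, stayed with their names. The counts by transcript are therefore incomplete for ligands and receptors.

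**Figure D4:**
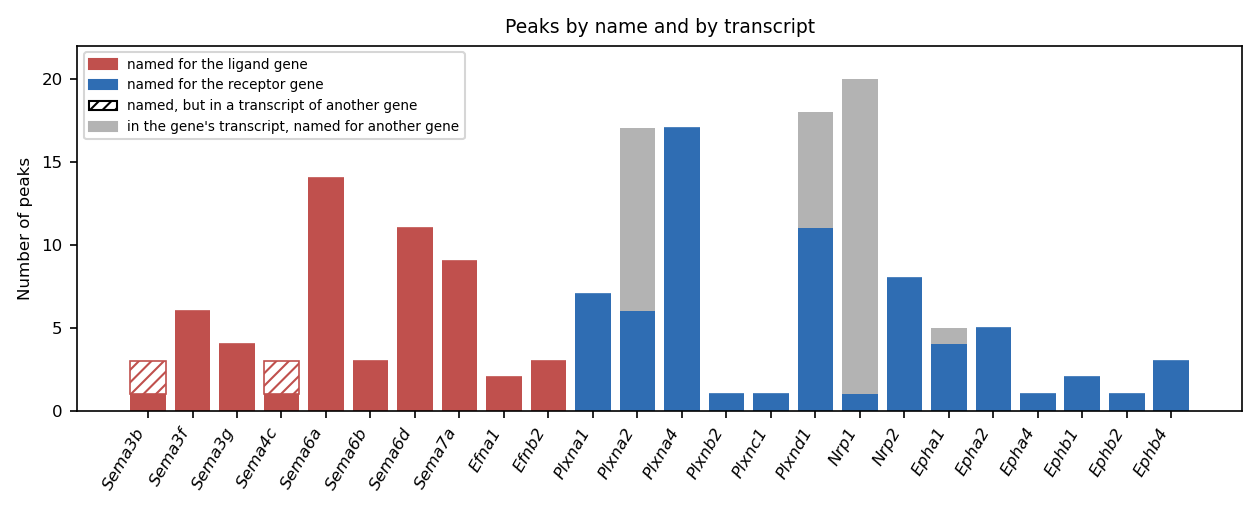
Number of peaks per member gene by name (red for ligands, blue for receptors), with hatching for named peaks that lie in a transcript of another gene and grey for peaks in an intron or exon of the gene that carry another name. Nrp1 goes from 1 to 20 peaks, Plxna2 from 6 to 17 and Plxnd1 from 11 to 18, while Sema3b and Sema4c go from 3 to 1.

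Among Eph receptors, Ephb4, the venous endothelial receptor of ephrin-B2, had the strongest peaks. One of 6.58-fold was intergenic, 5.58 kb upstream of the TSS (chromosome 12, 22423238 to 22423875), and one of 6.40-fold lay in intron 1, 283 bp downstream of the TSS (22417218 to 22418176). Another of 3.64-fold stood 1.20 kb upstream. Epha1 had a run of 4 peaks over 3926 bp at its start (chromosome 4, 71763404 to 71767329). Its promoter-TSS peak, centred 91 bp upstream of the TSS (71763404 to 71764137), reached 3.86-fold and was weaker than the intergenic peaks of 5.92-fold (71765336 to 71766532) and 5.45-fold farther upstream. Epha2, the receptor of ephrin-A1, had the most peaks of the family, 5, all in introns, from 2.62-fold to 5.07-fold. The strongest was 765 bp downstream of the TSS (chromosome 5, 159846105 to 159846973), and the widest of the family, 1233 bp, was in intron 3 (159855015 to 159856247, 4.77-fold). Ephb1 had 2 peaks in intron 1, 51.0 and 51.9 kb downstream, at 5.30-fold and 4.13-fold. Ephb2 had 1 of 4.56-fold, 29.3 kb upstream of its nearest start, in intron 1 of a transcript that the list does not tie to a gene name. Epha4 had 1 of 3.44-fold, 148.1 kb downstream of its TSS and between genes.

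Set side by side as known ligand and receptor pairs, no single pattern held. These pairs come from textbook knowledge and were put together after the values were seen. Plxnd1 had 11 named peaks and its ligand Sema3e none. Ephb4 reached 6.58-fold and its ligand Efnb2 4.53-fold, at peaks 5.58 and 31.1 kb from the TSS. Both of these genes also had a peak within 1000 bp of the TSS, at 6.40-fold and 3.93-fold. At Efna1 and Epha2 both sides had a peak within 1000 bp of the TSS, at 4.40-fold and 5.07-fold. At Sema4c and Plxnb2 both sides also had one, at 6.16-fold and 4.49-fold. The ligand side held more in the case of Sema7a and Plxnc1, with 9 named peaks against 1. Sema4d and Plxnb1 had none on either side.

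Other genes of the pathways were read from lists that the members do not enter. The effector lists had larger shares with a peak than the guidance genes (45.3%), with overlapping intervals. Of 32 plexin effectors, 20 (62.5%, 43.7 to 78.9%) had a peak and 11 (34.4%) a promoter-TSS peak. Among all protein-coding genes these shares were 26.5% and 9.68%. The strongest belonged to the kinase Fes at 7.89-fold at its promoter (chromosome 1, 142184253 to 142185150), to the GTPase Rras, a target of the plexin GAP domain, at 7.02-fold, 1.25 kb upstream of the TSS, and to Dpysl2, a collapsin response mediator, at 6.86-fold in an intron. Of 30 Eph and ephrin effectors in the gene table, 19 (63.3%, 43.9 to 80.1%) had a peak and 7 (23.3%) a promoter-TSS peak. They were led by Kalrn with a peak of 8.04-fold (chromosome 11, 69647716 to 69653149), by Sdcbp, an adaptor that binds ephrin-B, at 6.24-fold, and by Anks1a, an Eph adaptor, at 6.08-fold. Co-receptors and neuropilin partners had 7 of 17 (41.2%, 18.4 to 67.1%), with the VEGF receptors Kdr (19 peaks, up to 7.61-fold) and Flt1 (18 peaks, up to 5.93-fold) and the integrin Itga1 (up to 6.48-fold). The slit, robo and netrin families had 7 of 18 (38.9%, 17.3 to 64.3%), led by the netrin Ntn1 at 6.89-fold, the endothelial receptor Robo4 at 6.25-fold and the netrin receptor Unc5b at 5.66-fold, and no peak carried the name of Slit1, Slit2, Slit3 or Robo1. Over all 97 of these genes, 53 (54.6%, 44.2 to 64.8%) had a peak, beside 26.5% of protein-coding genes.

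The tissue label was read against marker genes. Peaks were named for 10 of 14 cardiac muscle markers (none at Myh6, Ryr2, Ttn or Tbx5) and for 6 of 8 endothelial markers (none at Pecam1 or Emcn). The strongest peak per gene ran from 4.08-fold to 6.27-fold at the cardiac muscle markers and from 5.35-fold to 7.61-fold at the endothelial markers. Weaker peaks also occurred, such as those at the promoters of Tnnt2 (3.41-fold) and Myl2 (3.74-fold). Peaks were also named for 1 of 6 fibroblast, 2 of 7 smooth muscle and pericyte and 1 of 7 immune markers. For neuron markers the count was 2 of 8, and for Schwann cell and glia markers 0 of 5. Among all protein-coding genes the share was 26.5%, close to that of neuron (25%) and smooth muscle and pericyte markers (28.6%). The interval of each of these small lists includes 26.5%, even for Schwann cell and glia markers (0 to 52.2%). A lower share at these markers than at protein-coding genes in general is therefore not resolved. In bulk chromatin, fewer cells with the mark and less mark per cell cannot be told apart, and which cells carry the peaks of the guidance genes was not tested.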

How the data were processed

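Values are those of 1 ChIP library; 2 samples are labelled, and the input had no values. Per the submitters' processing notes, Bowtie2, MACS2 and HOMER were among the tools, with build rn6, and their versions are not given in the sources used here. Fold enrichment is a ratio deposited by the authors, with p-values and q-values deposited as −log10 (largest q 0.0493). The deposited score holds no further information, being −log10 q times 10 without its decimals. Whether the input was the background of the call, or samples were pooled, is not given. The annotation gives each peak the nearest TSS, a class and a distance from the centre, and all 28706 peaks joined by name. Positions are 1-based.

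Sequencing depth is unknown. Shares were computed in Python 3.11.15 with scipy 1.17.1 and 95% intervals, which cover counting error only, and the functions were tested on simulated data. Of 8094 names, 6224 matched a current symbol of the GRCr8 gene table, used for names and denominators only. Members, lists and settings were chosen with earlier results of these data known. Every member is named. Values are given for promoter-TSS peaks, peaks of at least 6-fold that are a gene's strongest, the 3 strongest and the widest of each family, and genes with most peaks; others named were chosen after their values were seen. Alternatives were stricter peaks (−log10 q of at least 5, or at least 4-fold), older symbols, other denominators and windows, merged peaks, neuropilins left out, 1 peak per gene, and, chosen after seeing the data, assignment by transcript, peak classes without the genes with most peaks, and promoters without Sema6b. The listed name Grb4 had no row in the table.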

Additional observations from a re-analysis of the deposited data

How the results depend on the processing

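The larger share of receptor genes with any peak kept its direction, with differences of 7.86 to 16.5 percentage points beside 20.3 as reported, with stricter peaks, peaks within 100 kb and neuropilins left out. Merging cannot change it, and older symbols added no gene. The differences in promoter and near shares, fold, width, distance and intergenic share each changed sign under at least 1 alternative. Of 139 recomputed values, 96 stayed within a margin, 33 moved further and 10 changed sign. The margin was the interval of the reported share or median, or 1.5 times a reported count. For differences it was combined from the intervals of both groups. Some of the 96 could not change, such as ligand values with neuropilins left out, so the count does not measure robustness. Differences below are receptors minus ligands.

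With only peaks of −log10 q of at least 5, there were 18 ligand and 23 receptor peaks, both with a median fold of 5.35, with median widths of 837 and 579 bp (difference -258 bp). The receptor promoter share was then 0%, the median receptor distance 6.70 kb (difference -5.55 kb, against 4.90 kb over all peaks, where medians were 12.7 kb for ligands and 17.6 kb for receptors) and the share of other pathway genes 38.1%. With only peaks of at least 4-fold there were 35 ligand and 39 receptor peaks with median folds of 4.50 and 4.93 (difference 0.43), a receptor promoter share of 0% and a distance difference of -3.21 kb. Over genes with a peak alone, the ligand promoter share was 40% (difference -25.7 points) and near shares were 60% and 57.1% (difference -2.86 points). Merging peaks within 1000 bp left 37 ligand peaks with a median fold of 4.40 (difference 0.054) and widths of 562 and 491.5 bp. With a promoter taken as 1000 bp on either side of the TSS, the receptor share was 32.0% (difference 10.6 points). With the strongest peak per gene, ligands and receptors had median folds of 5.45 and 5.32, widths of 680.5 and 608.5 bp and distances of 9.86 and 7.66 kb (difference -2.20 kb). Leaving out Sema6a and Plxna4, the genes with most peaks, gave a distance difference of -0.86 kb and, chosen after seeing the data, differences of 4.59 points in intron shares (25.1 over all genes) and 3.79 points in intergenic shares (-18.6 over all genes), with 29.5% of ligand peaks intergenic. Assignment by transcript, chosen after seeing the data, gave 106 receptor peaks and a width difference of 14.5 bp. Beyond the construction of each setting, the cause was not tested.

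No paired analysis was possible because only 1 library had values. The unknown depth, the single library and the stepped folds limit every value, and a gene without a peak cannot be told from one below the threshold.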

Other observations

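Identical values recur among peaks of unrelated guidance genes. The strongest named peak of Nrp2, the second Sema4c peak and the peak past the end of Sema7a all have a fold of 5.35 and a −log10 q of 6.78. The list holds 1838 distinct folds for 28706 peaks, and 1 value is shared by 606 peaks. Among the members, runs of 4 peaks with gaps of at most 1000 bp occurred at Sema6a (4229 bp, 60.3 to 64.1 kb from the TSS), Epha1 (3926 bp), Plxna1 (3847 bp) and Sema3g (3247 bp).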
